A study of Homo sapiens with 19 samples.

Results

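Guanine nucleotide exchange factors (GEFs) and GTPase-activating proteins (GAPs) of small GTPases were taken as the genes whose symbol starts with ARHGEF, ARHGAP, RAPGEF, RALGPS, ARAP, DOCK, RASA or RGL followed by a digit. This rule, which uses no measured value, found 75 of the 11701 genes with a skipped-exon event in the deposited splicing tables, and 723 of the 100239 splicing events listed in any of the 15 tables. By family they were 21 ARHGEF exchange factors, 10 DOCK exchange factors, 27 ARHGAP genes, 6 Rap GEFs, 5 Ral GEFs, 3 Ras GAPs and 3 ARAP proteins.

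The study asked how the RNA-binding protein AKAP8 affects alternative splicing during the epithelial-mesenchymal transition (EMT) of HMLE/Twist-ER cells. HMLE cells are immortalized human mammary epithelial cells, and Twist-ER is a fusion of the transcription factor Twist that tamoxifen switches on, so the cells were epithelial (EPI) without tamoxifen (0 nM) and mesenchymal (MES) with 20 nM. RNA-seq covered 3 EPI control libraries, 3 EPI libraries with AKAP8 knockdown, 3 MES control libraries and 2 MES libraries with AKAP8 knockdown. Control cells carried a non-specific shRNA and knockdown cells an shRNA against AKAP8 (shAKAP8), both from stable lentiviral lines of the same HMLE/Twist-ER background, so every group carried Twist-ER and an shRNA. AKAP8 binding was mapped by eCLIP, which sequences RNA crosslinked to an immunoprecipitated protein, with 2 immunoprecipitates and 2 size-matched inputs in each state. The study's methods call the RNA-seq replicates biological and the labels do not say how they were grown apart, so p-values speak for these libraries only. The spread behind a p-value was moderated over all events or genes, and for splicing it was not set below counting error. Library numbers within a group follow their position in the splicing tables.

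Small GTPases such as RhoA, Rac, Cdc42, Rap, Ral, Ras and Arf are molecular switches, active when bound to GTP and inactive when bound to GDP. GEFs load them with GTP and GAPs speed up GTP hydrolysis, so these regulators set where and when RhoA, Rac, Cdc42 and Rap act on actin, on cell-cell junctions and on integrin adhesions. Epithelial cells that become mesenchymal lose junctions and reorganize the cytoskeleton through these switches.

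The 11 RNA-seq libraries held 31258177 to 40852217 reads over skipped-exon junctions, of which the members took 0.148 to 0.223%. The lowest share was in EPI knockdown library 2, at 0.148%, and the next lowest in MES knockdown library 1, at 0.156%. The libraries followed their labelled state. All 5 epithelial markers measured were lower in MES than in EPI controls, CDH1 (E-cadherin) with a log2 fold change of -4.34 and the splicing factor ESRP1 with -4.05, and all 9 mesenchymal markers measured were higher, COL1A1 by 7.02. The summed scaled junction reads of the epithelial markers were 7352 to 8773 in the EPI controls and 546.9 to 895.6 in the MES controls. Fibronectin (FN1) alone took 3.09 to 6.74% of junction reads in EPI libraries and 11.5 to 22.2% in MES libraries, and its part in the other results was not tested. The 3 blood and 3 endothelial markers had no exon shared by the tables and were not measured. Fewer cells of a type and less RNA per cell cannot be told apart in these bulk libraries.

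AKAP8 itself had 243.8, 309.9 and 245 scaled junction reads in the EPI controls and 120.7, 98.8 and 124.8 in the EPI knockdown libraries. The MES controls had 382.3, 195.8 and 247.7, and the MES knockdown libraries 108.3 and 121.9. Knockdown libraries were below every control of the same state. The log2 fold change was -1.20 ± 0.25 (SE) in EPI cells (limma adjusted p = 0.0664) and -1.20 ± 0.28 in MES cells (adjusted p = 0.0322).

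Exon inclusion was measured as percent spliced in (PSI), the share of length-corrected junction reads that include an exon. An event was called changed when the adjusted p was below 0.05 and PSI moved by at least 10 points. The alternative exons on which the results below turn were read from the GRCh37 genome. They are printed 5′ to 3′ on the transcript strand with the exon in capitals and 20 nt of intron on each side in lower case, because their lengths differ widely and 3 of them are microexons of at most 30 nt. ARHGEF11 lies at chr1:156908210-156908305 (minus strand), ARHGEF10L at chr1:17961043-17961057 (plus), ARHGAP17 at chr16:24950685-24950918 (minus), ARHGAP27 at chr17:43481635-43481700 (minus), RAPGEF2 at chr4:160265188-160265211 (plus), RAPGEF6 at chr5:130785716-130785739 (minus), RALGPS2 at chr1:178861365-178861442 (plus) and ARAP1 at chr11:72403798-72403830 (minus), exon coordinates given without the intronic bases.
ARHGEF11: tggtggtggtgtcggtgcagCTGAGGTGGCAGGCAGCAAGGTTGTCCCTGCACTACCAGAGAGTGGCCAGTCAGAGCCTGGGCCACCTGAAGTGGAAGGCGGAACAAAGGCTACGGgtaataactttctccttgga
ARHGEF10L: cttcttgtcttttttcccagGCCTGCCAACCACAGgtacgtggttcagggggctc
ARHGAP17: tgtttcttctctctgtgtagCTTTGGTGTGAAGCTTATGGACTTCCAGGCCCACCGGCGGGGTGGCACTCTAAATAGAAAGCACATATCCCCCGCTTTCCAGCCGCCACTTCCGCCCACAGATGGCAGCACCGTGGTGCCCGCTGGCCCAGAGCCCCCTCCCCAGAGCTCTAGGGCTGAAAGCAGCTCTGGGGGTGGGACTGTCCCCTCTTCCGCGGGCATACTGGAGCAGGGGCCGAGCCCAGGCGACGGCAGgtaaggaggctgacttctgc
ARHGAP27: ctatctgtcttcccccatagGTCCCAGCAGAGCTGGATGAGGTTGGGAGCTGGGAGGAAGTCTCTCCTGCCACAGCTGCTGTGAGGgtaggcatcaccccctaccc
RAPGEF2: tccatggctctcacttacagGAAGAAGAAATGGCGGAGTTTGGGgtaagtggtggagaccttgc
RAPGEF6: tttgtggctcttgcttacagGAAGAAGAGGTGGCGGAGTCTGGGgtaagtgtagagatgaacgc
RALGPS2: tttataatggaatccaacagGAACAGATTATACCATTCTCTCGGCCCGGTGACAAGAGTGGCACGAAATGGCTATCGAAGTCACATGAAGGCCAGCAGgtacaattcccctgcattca
ARAP1: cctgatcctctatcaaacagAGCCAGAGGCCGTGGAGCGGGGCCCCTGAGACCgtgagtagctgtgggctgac

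In the transition itself, MES against EPI controls, 11 member events in 10 genes changed, 3 towards inclusion and 8 towards skipping. All 11 were skipped-exon events. They made up 2.29% of the 481 member events tested, in 64 genes, where 1.51% of all 67451 events tested were called. By family, 5 of 162 events changed in the ARHGEF genes, 2 of 139 in the ARHGAP genes, 2 of 30 in the Ral GEFs, 1 of 19 in the Rap GEFs and 1 of 39 in the ARAP proteins. None of the 75 DOCK events or the 17 Ras GAP events passed. Most member exons were not alternative in EPI controls: 314 of 368 skipped-exon events (85.3%) had a PSI of 90 or more, 17 had 10 or less and 37 (10.1%) lay between, against 84.8% and 9.97% at 90 or more and between for all 49330 such events. The median absolute PSI change was 0.966 points for the members and 0.684 for all, on a median of 134 and 216 reads.

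Among the ARHGEF genes, the largest switch was in ARHGEF11 (PDZ-RhoGEF), which activates RhoA downstream of heterotrimeric G proteins of the G12/13 class. Its 96-nt exon had a PSI of 0 in each EPI control and 89.2, 87.5 and 95.8 in the MES controls. The groups did not overlap, and EPI controls had no inclusion read against 100 skipping reads, which allows a PSI of up to 1.51 for counting error alone. PSI rose from 0 to 90.8 ± 4.40 (SD, n = 3 each; adjusted p = 7.08e-29).

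ARHGEF12 (LARG) belongs to the same RhoA-activating subfamily and moved the other way. Its 120-nt exon had PSI values of 95.8, 94.9 and 96.1 in EPI controls and 72.1, 72.8 and 87.0 in MES controls. MES control library 3 stood nearest to the EPI values, with no overlap, and PSI fell by 18.3 points (adjusted p = 7.4e-09). ARHGEF10L, another RhoA exchange factor, has a 15-nt microexon that was included at 93.3, 100 and 100 in EPI controls and at 43.8, 49.8 and 49.9 in MES controls. PSI fell from 97.8 ± 3.84 to 47.8 ± 3.49 (n = 3 each; adjusted p = 2.93e-05), with all MES libraries below all EPI libraries.

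ARHGEF39 contributed a pair of exons, of 129 nt at chr9:35662943-35663071 and of 230 nt at chr9:35662509-35662738, both on the minus strand. Each was fully included in all EPI controls, where 0 skipping reads allow a PSI down to 97.5 and 98.1. In MES controls the 129-nt exon had PSI values of 74.5, 92.0 and 80.0 and fell by 17.8 points (adjusted p = 0.0409), and the 230-nt exon had 83.6, 93.1 and 86.2 and fell by 12.4 (adjusted p = 0.0474). These were the weakest calls of the set. Each call was lost when any 1 control library was left out, and the event with the most reads for the same exon, with other flanking exons, was not called for either: PSI went from 93.05 to 91.2 for the 129-nt exon and from 100 to 96.2 for the 230-nt exon of ARHGEF39.

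Among the ARHGAP genes, ARHGAP17 (RICH1), a Cdc42 and Rac GAP of tight junctions, included a 234-nt exon in mesenchymal cells. PSI was 5.63, 3.12 and 8.14 in EPI controls and 62.8, 69.3 and 70.7 in MES controls. The groups stood far apart, and PSI rose by 62.0 points, from 5.63 ± 2.51 to 67.6 ± 4.23 (n = 3 each; adjusted p = 2.02e-25). ARHGAP27 (CAMGAP1), a Rac and Cdc42 GAP, lost a 66-nt exon. Its PSI was 77.9, 68.4 and 68.6 in EPI controls and 20.6, 29.3 and 41.6 in MES controls, where the libraries were spread but stayed below every EPI control. PSI fell by 41.1 points (adjusted p = 0.000778), and the call was lost without MES control library 1.

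RAPGEF2 and RAPGEF6 (PDZ-GEFs) activate Rap1, a GTPase of cell-cell junctions and integrin adhesion. Their 24-nt microexons matched at 21 of 24 positions (87.5%), as the printed sequences show. For RAPGEF2, PSI was 27.5, 14.7 and 21.9 in EPI controls and 66.9, 40.4 and 50.4 in MES controls. No library overlapped, and PSI rose by 31.2 points (adjusted p = 0.00864). Without EPI control library 2 or 3, or MES control library 1, the call was lost. For RAPGEF6, PSI was 4.56, 0 and 1.73 in EPI controls and 12.9, 12.8 and 14.2 in MES controls. These values did not overlap either, but the difference of 11.2 points did not pass (adjusted p = 0.132).

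RALGPS2, a GEF for RalA, which works in vesicle delivery and cytoskeletal organization, had the largest fall. Its 78-nt exon had PSI values of 96.1, 93.5 and 88.0 in EPI controls and 14.4, 28.5 and 32.8 in MES controls. All MES libraries were far below the EPI libraries, and PSI fell by 67.3 points (adjusted p = 8.45e-26). RGL2, a Ral GEF that binds active Ras, lost part of the inclusion of a partly coding 197-nt exon at chr6:33266232-33266428 (minus). PSI was 100, 98.5 and 100 in EPI controls and 81.5, 89.1 and 81.6 in MES controls, without overlap, and fell by 15.4 points (adjusted p = 0.0186). The call was lost without EPI control library 1 or 3, or MES control library 1 or 3.

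ARAP1, a GAP for Arf and RhoA GTPases, had a 33-nt exon with PSI values of 65.9, 54.6 and 55.5 in EPI controls and 38.1, 34.8 and 25.03 in MES controls. PSI fell by 26.0 points, from 58.6 ± 6.28 to 32.6 ± 6.80 (n = 3 each; adjusted p = 1.41e-05), with every MES library below every EPI library. Limma on logit PSI did not call the exons of ARAP1, ARHGEF12, ARHGAP27 and RAPGEF2 in the transition.

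**Figure D1:**
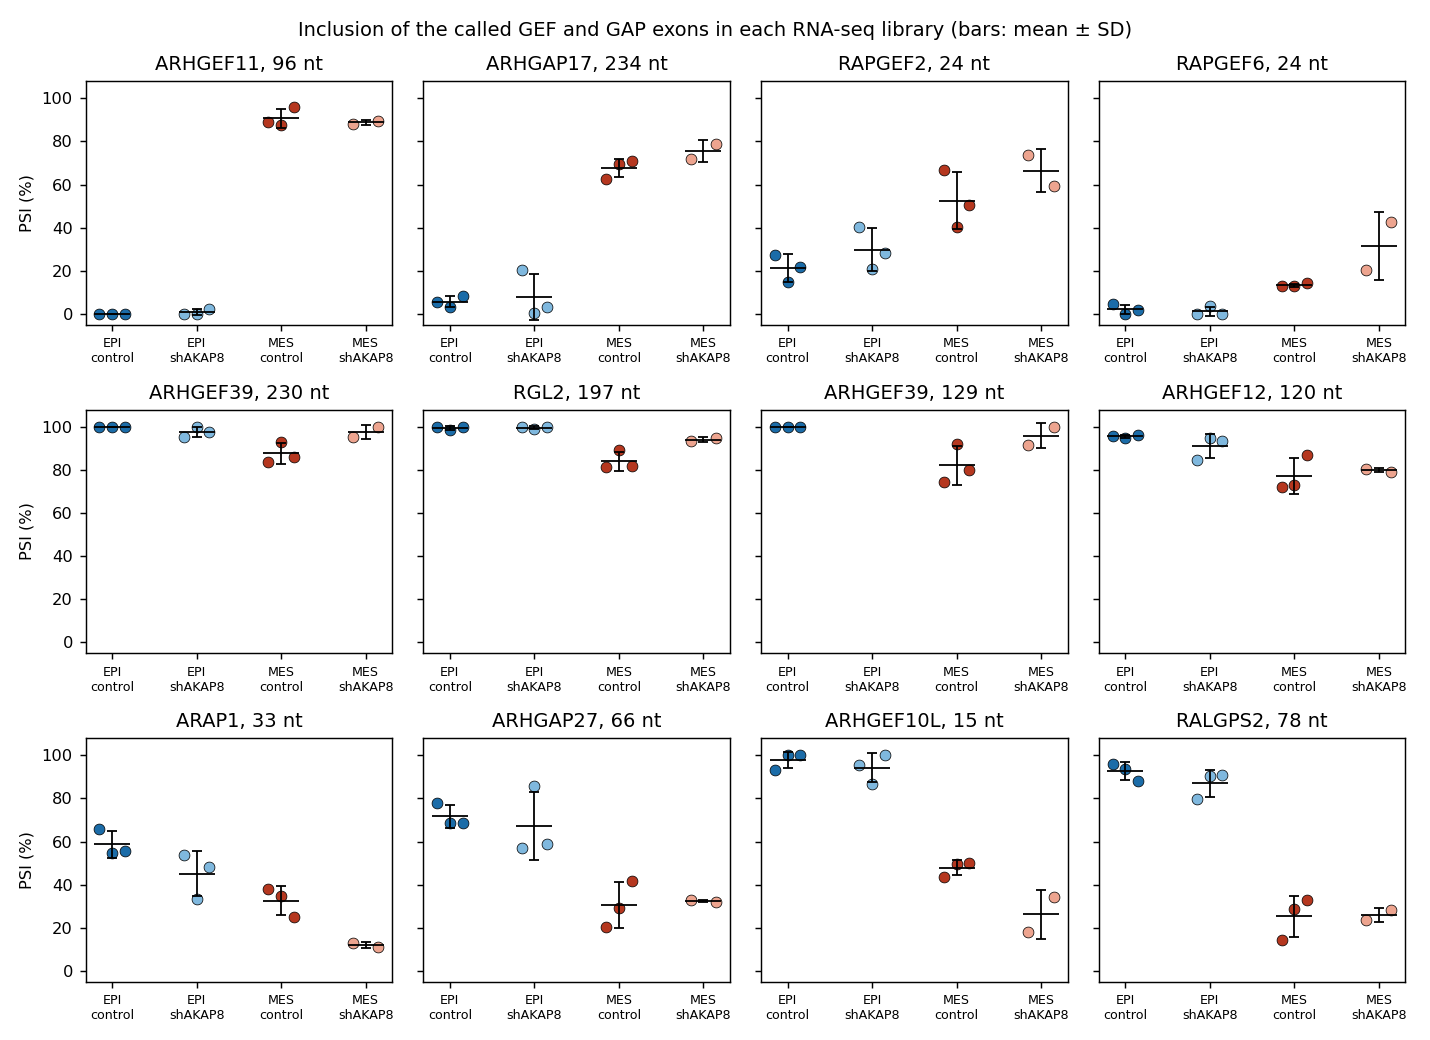
Percent spliced in (vertical axes, percent) of the 12 called member exons in each RNA-seq library, by group (EPI control, EPI shAKAP8, MES control, MES shAKAP8), each point a library, with the group mean as a long line and the SD as an error bar; the 129-nt ARHGEF39 exon has no EPI shAKAP8 points because it was listed with other flanking exons there. ARHGEF11 goes from 0 in EPI controls to between 87.5 and 95.8 in MES controls, and ARAP1 is lowest in the MES knockdown libraries, at 12.9 and 10.9.

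With the RAPGEF6 exon, which was called between states only in knockdown cells, 12 member exons were called in at least 1 comparison. Their lengths were mostly divisible by 3: 10 of 12 (83.3%), against 171 of 326 member exons tested (52.5%) and 16739 of 39076 exons of all genes (42.8%). Microexons of at most 30 nt were 3 of the 12 (25%), against 3.37% of member exons and 1.29% of all. The annotation placed 11 of the 12 wholly in coding sequence, and none of these held an in-frame stop codon. These shares describe a small set of exons that were themselves selected by their change.

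The 300 nt of intron on either side were searched on the transcript strand for letters that known splicing factors bind. TGCATG, bound by RBFOX proteins, stood upstream of 3 of the 12 exons, those of ARHGAP17, RALGPS2 and ARAP1, where 8.22% of all tested exons had it upstream, and downstream of 0, where 8.56% of all had it. ACTAAC, bound by QKI, stood upstream of 1 exon, that of ARHGAP17 (3.46% of all exons). GGTGG, a form of the ESRP site, stood upstream of 4 and downstream of 8 (33.0% and 36.5% of all exons). A match is a string in a window and not a shown binding site.

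The same transition was then measured in knockdown cells, MES shAKAP8 against EPI shAKAP8, which shares no library with the control comparison. Of 281 member events tested, 7 were called (2.49%), 4 towards inclusion and 3 towards skipping, where 1.2% of all events were called. Limma on logit PSI called none of the 7 and 0 of all events here. Of the calls, 6 were shared with the control comparison, which is 54.5% of the 11 calls there and 85.7% of the 7 here. For all events the shared calls were 338, or 33.2% and 66.7%. These shares do not have like bases. Fewer events were tested in knockdown cells, 42146 against 67451 of all and 281 against 481 of members, and an untested call counts as not shared. Of the 1017 control calls over all events, 256 were mutually exclusive exons, whereas every member call was a skipped exon.

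The shared exons moved in the same direction in both comparisons. ARHGEF11 had PSI values of 0, 0 and 2.37 in EPI knockdown and 88.0 and 89.6 in MES knockdown libraries, a rise of 88.0 points (adjusted p = 2.82e-21). ARHGAP17 had 20.3, 0.524 and 3.17 against 72.0 and 79.0, a rise of 67.5 points (adjusted p = 6.52e-19), with EPI knockdown library 1 well above its partners. RALGPS2 had 79.9, 90.4 and 91.0 against 23.7 and 28.1, and fell by 61.2 points (adjusted p = 5.75e-08). The microexons followed. ARHGEF10L went from 95.5, 86.8 and 100 to 18.3 and 34.3, and fell by 67.8 points (adjusted p = 1.84e-08). RAPGEF2 went from 40.3, 20.8 and 28.4 to 73.6 and 59.5, a rise of 36.7 points (adjusted p = 0.00429), and lost its call without EPI knockdown library 3 or MES knockdown library 1. The 33-nt ARAP1 exon went from 53.6, 33.4 and 48.4 to 12.9 and 10.9 and fell by 33.2 points (adjusted p = 2.44e-06).

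RAPGEF6 was called in knockdown cells and not in controls. Its PSI was 0, 3.81 and 0 in EPI knockdown and 20.2 and 42.7 in MES knockdown libraries, a rise of 30.2 points (adjusted p = 0.00534) in which the MES libraries lay far from each other. Without EPI knockdown library 3 or MES knockdown library 2 the call was lost. The knockdown effect on this exon was not shown to differ between the states (adjusted p = 0.818). ARHGAP27, at 57.0, 85.5 and 58.9 against 32.8 and 32.2, and ARHGEF12, at 84.5, 94.8 and 93.4 against 80.6 and 79.2, did not pass here (adjusted p = 0.123 and 0.095). RGL2, at 100, 98.8 and 100 against 93.2 and 94.9, was not called either. The 230-nt ARHGEF39 exon, at 95.4, 100 and 97.8 against 95.45 and 100, hardly moved in knockdown cells. The 129-nt ARHGEF39 exon, listed there with other flanking exons, was not called.

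AKAP8 knockdown was compared with control within each state. In EPI cells 0 of 454 member events were called by the quasi-binomial test, 6 (1.32%) had an unadjusted p below 0.05 with a change of at least 10 points, where 0.921% of all events did, limma on logit PSI also called 0, and 0.0446% of all events were called. In MES cells 1 of 412 was called (0.243%), against 0.0506% of all events. These comparisons use the same control libraries as the transition in control cells, so their values are set side by side only.

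The call in MES knockdown was the 33-nt ARAP1 exon, which also fell in the transition. Its PSI was 38.1 and 34.8 in the 2 MES controls of that table and 12.9 and 10.9 in the knockdown libraries. Knockdown libraries were below all other libraries of the study, and PSI fell from 36.5 ± 2.34 to 11.9 ± 1.38 (n = 2 each; quasi-binomial test with limma moderation, adjusted p = 0.00211). In EPI cells the exon had 53.6, 33.4 and 48.4 under knockdown, as given above, below every control but not called (a difference of -13.5 points, adjusted p = 0.731). The difference between the states' knockdown effects did not pass (adjusted p = 0.809). The MES call was lost without MES control library 1, without either MES knockdown library, and by limma on logit PSI, and it held with the third MES control added. With 1 library left in a group, that library is assumed to vary like those of the other group, so these losses say little about stability. ARAP1 scaled junction reads were 2435 ± 51.3 in MES controls and 2013 ± 212 under knockdown, a difference that was not called (adjusted p = 0.343).

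Member events with the lowest p in each state are given as values, since none of them passed. In EPI cells a 49-nt exon of ARHGAP17 at chr16:24939005-24939053 had PSI values of 35.4, 20.7 and 36.9 in controls and 17.3, 7.77 and 24.1 under knockdown, and the groups overlapped. A 3′ splice site of ARHGAP5, a GAP for RhoA, had 73.3, 78.6 and 83.7 in controls and 96.1, 100 and 100 under knockdown, without overlap but on a mean of 22.3 reads per library. A 183-nt exon of ARAP1 went from a mean PSI of 98.0 to 92.9. In MES cells a 5′ splice site of ARHGEF40 (Solo), a RhoA exchange factor, had 87.1 and 100 in controls and 57.8 and 73.4 under knockdown (adjusted p = 0.094). Retention of the same stretch of ARHGEF40, listed as a separate event, had 9.80 and 27.5 in controls and 10.1 and 3.97 under knockdown, with overlap. A 117-nt exon of ARHGEF10 had 22.5 and 21.0 in controls and 37.6 and 34.7 under knockdown (adjusted p = 0.54). A 106-nt exon of ARHGAP21 went from a mean PSI of 93.0 to 98.7, and a 3′ splice site of DOCK1 from 21.5 to 12.1.

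Whether knockdown acted differently in the 2 states was tested for 210 member skipped-exon events. The interaction test called 0, where it called 0.00993% of all such events tested, and limma on logit PSI also called 0. Of the member events, 2 (0.952%) had an unadjusted p below 0.05 with a difference of at least 10 points, where 1.23% of all did. The lowest p belonged to a 266-nt exon of ARHGAP19-SLIT1, with a knockdown minus control difference of 1.66 points in EPI and -7.80 in MES cells (adjusted p = 0.809).

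**Figure D2:**
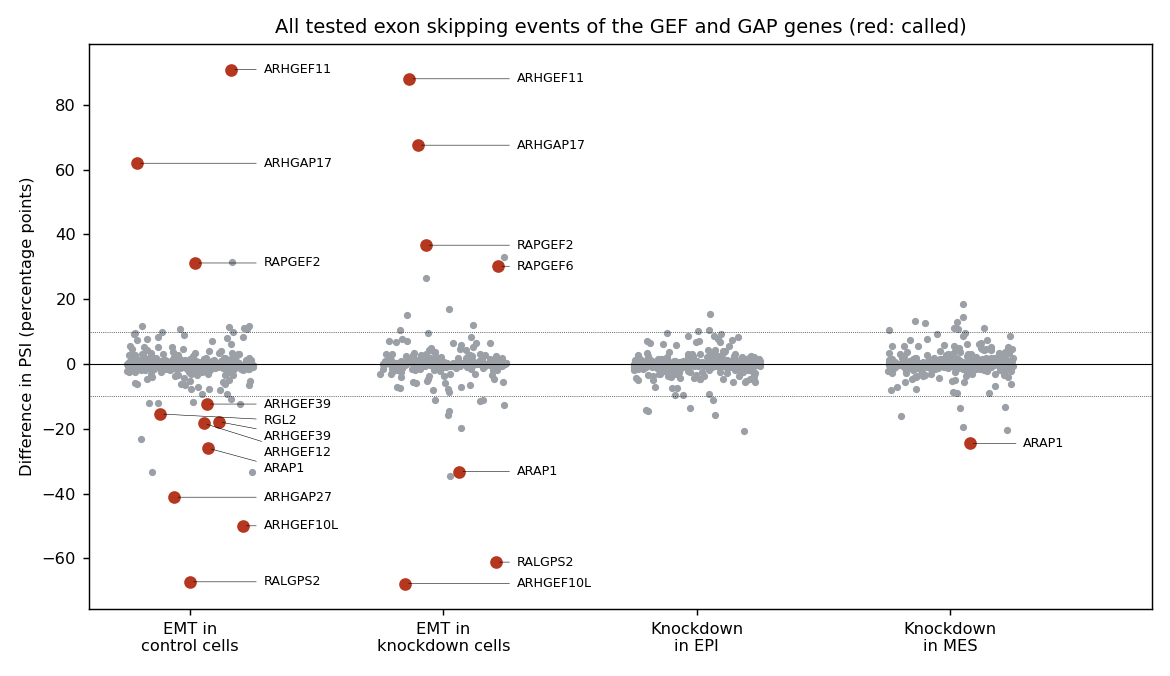
Change in percent spliced in (points) of every tested member skipped-exon event in the transition of control cells, the transition of knockdown cells, EPI knockdown and MES knockdown, each point an event, red and named where called, with dotted lines at 10 points in either direction and sideways scatter for legibility. In control cells the transition reaches from -67.3 (RALGPS2) to 90.8 (ARHGEF11), and the called point of the knockdown columns is ARAP1 in MES cells, at -24.5.

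Gene levels were taken as scaled skipped-exon junction reads per gene, inclusion and skipping together, so they cannot be compared between genes. An included exon has more junctions to read than a skipped one, so a change in inclusion also moves the level of its gene between libraries. How far exon changes moved the levels was not tested. Of the 75 members, 59 could be tested and 16 had no skipped-exon event shared by the tables. Between MES and EPI controls 16 of 59 changed (27.1%) at an adjusted p below 0.05 and an absolute log2 fold change above 1, where 12.5% of all 9014 genes did. Of these, 7 were higher and 9 lower. With library totals in place of median-ratio scaling the median of all genes moved from 0.011 to -0.103, and 5 members were higher and 10 lower, with ARHGEF17 and ARHGEF40 no longer called.

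RASA3, a GAP for Ras and Rap, rose most. Its scaled reads were 21.8, 47.2 and 32.1 in EPI controls and 274.4, 335.6 and 193.9 in MES controls, and 409.2 and 431.6 in MES knockdown libraries. All MES libraries were above all EPI libraries, and the log2 fold change between controls was 2.99 ± 0.31 (SE; adjusted p = 1.77e-05). RGL1, a Ral GEF, rose from 51.5 ± 16.6 to 258 ± 34.0 (SD, n = 3 each; limma adjusted p = 7.76e-05). RAPGEF2, which activates Rap1, rose from 79.7 to 233 (log2 fold change 1.60), and DOCK4, a Rac activator, from 172 to 464 (1.44). Among the ARHGEF genes, ARHGEF10, ARHGEF17 and ARHGEF40 rose, with log2 fold changes of 1.18, 1.05 and 1.02. ARHGEF17 lost its call without MES control library 1. ARHGEF40 lost its call without EPI control library 1 or 3 or MES control library 2 or 3, and with only the exon of most reads.

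ARHGAP8 (BPGAP1) fell most. It had 212.5, 169.2 and 220.2 scaled reads in EPI controls and 8.82, 23.5 and 6.32 in MES controls. The groups were far apart, with a log2 fold change of -4.05 ± 0.40 (adjusted p = 1.16e-05). ARHGAP8 shares exons with the read-through gene PRR5-ARHGAP8, and reads of the pair cannot be told apart. RGL3, a Ral GEF, fell from 64.8 to 8.48 (log2 fold change -2.80), and RGL2 from 899 to 429 (-1.10; not called without MES control library 1), so RGL1 moved up and RGL2 and RGL3 down.

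Of the ARHGEF genes, 4 fell: ARHGEF19 (log2 fold change -2.26), ARHGEF5 (-1.74), ARHGEF37 (-1.45) and ARHGEF3 (-1.38), the last on only 23.8 and 8.51 mean scaled reads. ARHGEF3 lost its call without any of the 3 EPI controls, any of the 3 MES controls or EPI knockdown library 3, or with a minimum of 50 scaled reads. ARAP2, an ARAP family GAP, fell from 168 to 58.6 (-1.50), a call lost without EPI control library 1 or 3 or MES control library 1 or 2, and ARHGAP27, whose exon also changed, from 87.5 to 30.7 (-1.49). By family, 3 of 19 ARHGEF genes tested rose and 4 fell, 2 of 19 ARHGAP genes fell and none rose, 1 of 7 DOCK genes rose, 1 of 4 Rap GEFs rose, 1 of 4 Ral GEFs rose and 2 fell, 1 of 3 Ras GAPs rose and 1 of 3 ARAP genes fell. The median log2 fold change was 0.034 for the members and 0.011 for all genes. ARHGEF11, with the largest exon switch, went from 220 to 378 scaled reads (log2 fold change 0.79 ± 0.19, adjusted p = 0.00872), short of the fold threshold. These reads include those of the switching exon, and the part of that exon in the rise was not tested.

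**Figure D3:**
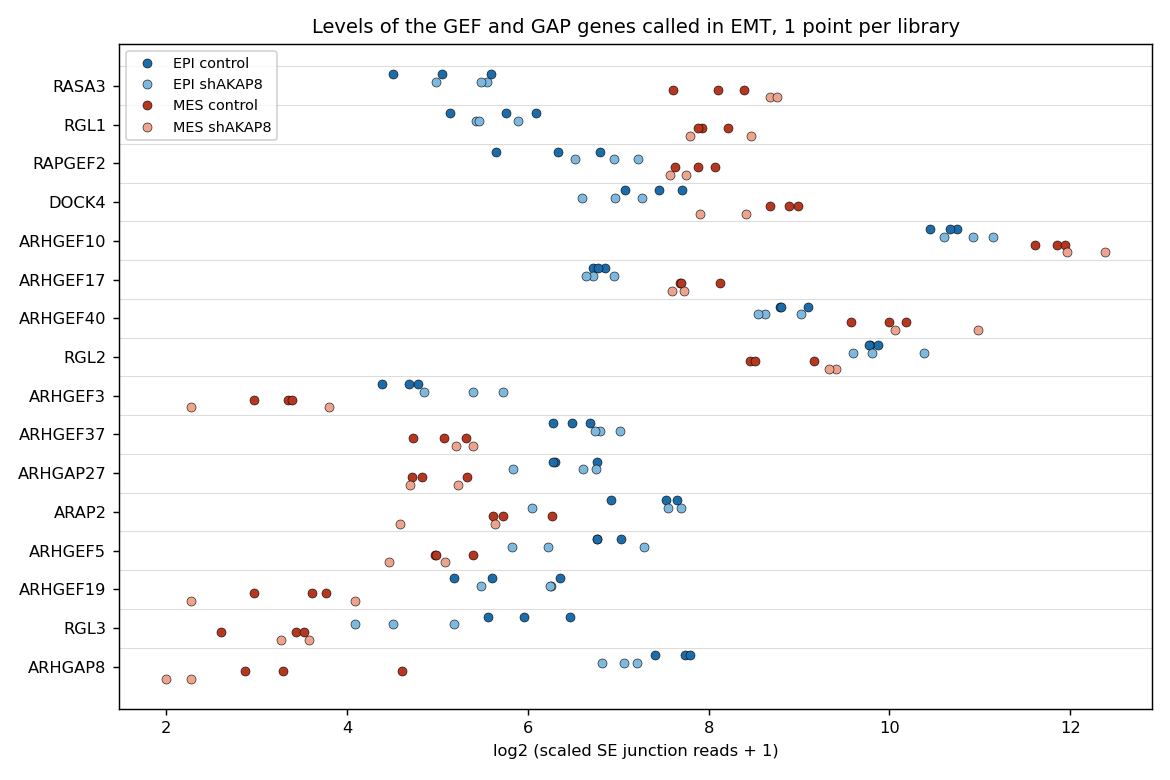
Log2 of scaled skipped-exon junction reads plus 1 (horizontal axis) for the 16 member genes whose level changed in the transition, each point a library and colours marking the RNA-seq groups. RASA3, at 21.8 to 47.2 scaled reads in EPI controls and 193.9 to 335.6 in MES controls, stands at the top, and ARHGAP8 at the bottom runs the other way.

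The levels were compared between the states of knockdown cells too, in libraries that the control comparison does not contrast but within the same fit, which pools the spread. Of 59 members, 15 changed (25.4%), 6 higher and 9 lower, where 12.3% of all genes did. Both comparisons called 12 members, all in the same direction, which is 75% of the 16 and 80% of the 15. For all genes the shared calls were 750, or 66.4% and 67.8%. RASA3 (log2 fold change 3.38), RGL1 (2.54), ARHGEF40 (1.79), ARHGEF10 (1.28) and DOCK4 (1.22) rose again, and ARHGAP8 (-4.89), ARHGEF19 (-2.82), ARHGEF3 (-2.28), ARAP2 (-1.98), ARHGEF5 (-1.67), ARHGEF37 (-1.55) and ARHGAP27 (-1.44) fell again. The proliferation marker CDK1 was also called lower in knockdown cells (-1.02, limma adjusted p = 0.0321). MKI67 was lower there, short of the fold threshold (-0.70, adjusted p = 0.0304). In controls CDK1 had -0.25 and MKI67 -0.04, neither called. TOP2A (-0.38) and CCNB1 (-0.34) did not pass in knockdown cells. Whether proliferation had a part in the member levels was not tested.

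Called in knockdown cells and not in controls were ARHGAP22, ARHGEF39 and RASA1. ARHGAP22, a Rac GAP, had 493.3, 348.3 and 505.6 scaled reads in EPI knockdown and 646.9 and 1488 in MES knockdown libraries, a log2 fold change of 1.15 (limma adjusted p = 0.0142), and 0.92 in controls. ARHGEF39 had 201.2, 221.6 and 231 against 92 and 92.92 (-1.23, adjusted p = 0.0013), and -0.81 in controls. RASA1 (p120 RasGAP), a GAP for Ras, had 896.6, 585.9 and 921.8 against 295.2 and 502.6 (-1.03, adjusted p = 0.011), and -0.84 in controls. All 3 moved the same way in controls, short of the fold threshold there, and whether the change differed between knockdown and control cells was not tested. The ARHGAP22 call was lost without EPI knockdown library 2 or MES knockdown library 2 and with library totals, and the RASA1 call without EPI knockdown library 1 or 3 or MES knockdown library 1. Without MES knockdown library 1 the calls of ARAP2, ARHGEF3, ARHGEF5 and ARHGEF19 were also lost, and without MES knockdown library 2 those of ARHGAP27 and DOCK4. With library totals the median of all genes moved from 0.018 to -0.196, and 5 members were higher and 13 lower.

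Knockdown changed few member levels. In EPI cells 1 of 59 was called (1.69%), against 0.189% of all genes, and in MES cells 2 of 59 (3.39%), against 2.27% of all genes. Those shares of all genes moved when 1 library was left out: calls went from 17 to between 3 (without EPI control library 1) and 38 (without EPI knockdown library 2) in EPI knockdown, and from 205 to between 63 (without MES knockdown library 1) and 335 (without EPI knockdown library 2) in MES knockdown. They also moved by over 1.5 times in EPI knockdown without EPI control library 2, EPI knockdown library 1 or MES control library 2, and in MES knockdown without MES knockdown library 2 or MES control library 1 or 2. Called in both states was the model ARHGAP19-SLIT1, whose counted exons all lie within ARHGAP19, a RhoA GAP of dividing cells (chr10:98981930-99052430, minus strand). It had 643.1, 501.8 and 542.8 scaled reads in EPI controls and 153.3, 254.5 and 188.3 under knockdown, and 666.5, 567.1 and 637.7 in MES controls and 135.1 and 154.9 under knockdown. Every knockdown library was below every control library. The log2 fold changes were -1.52 ± 0.21 (adjusted p = 0.00884) and -2.10 ± 0.23 (adjusted p = 0.00107). Reads of ARHGAP19 and of the read-through model cannot be told apart, so the gene behind the fall is uncertain, and the EPI call was lost without EPI control library 1.

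RAPGEF1, a Rap1 exchange factor, was the other call, in MES knockdown. It had 635.1, 613 and 595.5 scaled reads in MES controls and 1515 and 1053 under knockdown, both above every control, with a log2 fold change of 1.04 ± 0.27 (adjusted p = 0.0448). The call lay close to its threshold and was lost with library totals, with only the exon of most reads, and without any EPI control, any MES control or either MES knockdown library. With library totals RAPGEF6 was called lower in its place; in the reported fit RAPGEF6 went from 432 to 215 scaled reads (log2 fold change -0.998, adjusted p = 0.0318), at the fold threshold. ARHGEF1, a RhoA exchange factor, went from 1591 to 2897 (0.85, adjusted p = 0.0412), ARHGEF12 from 3165 to 2149 (adjusted p = 0.0594) and ARHGEF39 from 153 to 92.5 (adjusted p = 0.076). In EPI knockdown the next genes by p were RGL3, from 64.8 to 24.4 scaled reads (adjusted p = 0.242), ARHGEF26, from 18.6 to 35.2, ARAP1, from 2801 to 2183, and RALGPS2, from 747 to 549, none of them called. The median log2 fold change in MES knockdown was -0.203 for the members and -0.013 for all genes.

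Partners of these regulators were followed as 3 lists, to be read against the 12.5% of all genes that changed. Of 18 GTPases and GDP-dissociation inhibitors tested, 1 fell in the transition, RAC2 (log2 fold change -1.31), and none rose. Of 24 effectors, 2 fell, the kinase PAK4 (-1.31) and RTKN (rhotekin), which binds active RhoA (-1.54). Of 44 other GEFs and GAPs, 4 rose and 3 fell. The Rac GAP CHN1 rose from 766 to 4684 scaled reads, and STARD13 (log2 fold change 1.70), SYDE1 (1.56) and FAM13B (1.52) rose less. ELMO3, an adaptor of DOCK proteins, fell from 509 to 42.2 (-3.74), with FGD6 (-1.51) and SRGAP3 (-1.21).

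Exon changes of the partners in the transition were 5 of 97 events for GTPases and inhibitors, 3 of 215 for effectors and 12 of 429 for other GEFs and GAPs, where 1.51% of all events were called. RHOC, a close relative of RhoA, gained a 69-nt exon, with PSI moving from 37.5 to 52.5 (adjusted p = 1.79e-08). A longer form of that RHOC exon, listed separately, rose by 12.4 points. The inhibitor ARHGDIA and the GTPases HRAS and RAP1B had the other calls, which moved by -12.5, -10.3 and 10.1 points. All 3 effector events were in BAIAP2 (IRSp53), which links Rac and Cdc42 to the actin cytoskeleton. The 46-nt exon went from 48.6 to 23.5 (adjusted p = 0.00779), and a 42-nt form of it from 26.0 to 8.72. A 99-nt exon of BAIAP2 moved the other way, from 5.05 to 16.6 (adjusted p = 7.04e-06). MYO9A, a myosin with a GAP domain for RhoA, gained a 195-nt exon by 53.5 points and also a 120-nt exon. AKAP13, a RhoA exchange factor and anchoring protein, gained a 54-nt exon by 35.2 points, and NF1 (neurofibromin), a Ras GAP, a 63-nt exon by 25.1 points. RALGAPA1, a Ral GAP subunit, gained an 82-nt exon by 37.2 points, FAM13B gained exons of 192 and 66 nt by 30.7 and 22.8 points, and a 3′ splice site of the Ras GAP RASAL2 moved by -29.1 points.

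Knockdown called 0 exon events of the 3 lists in either state by the quasi-binomial test. Tested in EPI cells were 91 events of GTPases and inhibitors, 201 of effectors and 372 of other GEFs and GAPs. In MES cells these were 85, 187 and 371. Of all events, 0.0446% were called in EPI and 0.0506% in MES cells. At the level of genes, MYLK (myosin light chain kinase), counted with the effectors, fell in both. It had 516.9, 620.8 and 543.9 scaled reads in EPI controls and 185.8, 210.6 and 226.8 under knockdown, and 1214, 1213 and 781 in MES controls and 213.7 and 260.8 under knockdown. No knockdown library reached a control, and the log2 fold changes were -1.43 (adjusted p = 0.0099) and -2.15 (adjusted p = 0.00107). PAK4 rose in MES knockdown, from 292 to 891 scaled reads (log2 fold change 1.53, adjusted p = 0.0438), with the knockdown libraries at 573.1 and 1208.

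AKAP8 eCLIP peaks, called by enrichment over input and merged over the 2 replicates of a state, lay on the transcribed strand of 26 of 75 members in EPI cells (34.7%, against 20.1% of the 11671 genes placed on the annotation) and of 20 in MES cells (26.7%, against 14.3%). In either state 31 members had a peak and in both states 15. These counts use the whole deposited list, of which 2972 of 24637 EPI and 4162 of 30390 MES peaks lay below the limits for a high-confidence site in the study's methods. At those limits, a log2 enrichment of at least 2 with a −log10 p of at least 3, members with a peak were 24 in EPI (32%, against 18.4% of all genes) and 16 in MES (21.3%, against 11.4%), with 189 and 343 member peaks. The members are long genes, with a median span of 134.7 kb against 38.2 kb. Among genes of up to 50 kb, 29.4% of members and 18.9% of all genes had an EPI peak, and 17.6% and 12.8% a MES peak. Above 150 kb, 21.2% of members and 23.3% of all genes had an EPI peak, and 24.2% and 18.7% a MES peak. From 50 to 150 kb the shares were 56% and 21.2% in EPI and 36% and 15.5% in MES. Replicates were merged before deposit, so these values carry no replicate error, and the read depth behind them is unknown.

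In the whole list there were 230 member peaks in EPI, in 161 separate regions because listed peaks overlap each other, and 412 in MES, in 295 regions. Of them, 91 EPI peaks and 106 MES peaks overlapped a peak of the other state. Most lay deep in introns, 153 in EPI and 354 in MES, or in introns near exons, 60 and 48. Coding exons held 3 and 7. The median log2 enrichment of immunoprecipitate over input was 3.54 in EPI and 3.29 in MES, against 3.67 and 3.36 for all listed peaks.

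Member peaks were G-rich. A run of GGG stood within the 100 nt window of every member peak and of 99.9% of all EPI and 99.6% of all MES peaks, where CCC stood in 72.5% and 79.0%. The strongest member peaks are printed 5′ to 3′ on the transcript strand from GRCh37, with runs of 3 or more G in capitals, to show how densely these runs recur. They are the MES peak in an intron of RASA3 at chr13:114870260-114870384 (minus strand; log2 enrichment 5.63), the EPI peak in an intron of DOCK1 (a Rac activator that works with ELMO proteins) at chr10:128614443-128614504 (plus; 5.50) and the EPI peak in an intron of ARHGEF4 (Asef, a Rac and Cdc42 exchange factor) at chr2:131606362-131606461 (plus; 5.56). Next in EPI was a second DOCK1 region (chr10:128612990-128613101; 5.41), and in MES a second RASA3 region (chr13:114869879-114869947; 5.11) and a peak of ARHGAP39 (4.94).
RASA3: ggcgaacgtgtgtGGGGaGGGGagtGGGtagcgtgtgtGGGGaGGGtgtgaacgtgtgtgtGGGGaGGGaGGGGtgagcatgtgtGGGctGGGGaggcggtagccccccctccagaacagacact
DOCK1: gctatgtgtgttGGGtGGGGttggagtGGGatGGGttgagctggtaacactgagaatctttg
ARHGEF4: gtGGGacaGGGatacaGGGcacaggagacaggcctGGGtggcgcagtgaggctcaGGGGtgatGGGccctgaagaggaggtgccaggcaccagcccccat

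Peaks were concentrated in few members. RASA3 had 146 peaks in MES and 0 in EPI, and ARHGEF4 had 37 in EPI and 0 in MES. ARHGEF10 had 38 in EPI and 68 in MES, ARHGAP23 18 and 42, ARHGAP22 15 and 42, ARHGAP39 19 and 33, and DOCK1 17 and 19. Of the 16 genes whose level changed, 9 had no peak in either state. Of the 7 genes that rose, 4 had a peak (RASA3, ARHGEF10, ARHGEF17, ARHGEF40), and all 4 had more in MES. Of the 9 that fell, 3 had a peak (ARHGAP8 with 9 in EPI, ARHGAP27 with 8 and ARHGEF37 with 1), all in EPI alone. ARHGEF37 and ARHGEF40 rested on 1 peak each. Among all genes with a peak, 79.8% of the 119 that rose had more in MES and 89.5% of the 237 that fell had more in EPI. Of the 1889 with a peak whose level was not called, 62.4% had more in EPI and 29.5% more in MES. Of the 21 such members, 11 had more in EPI and 9 more in MES. The part of transcript level in the number of peaks was not tested.

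None of the 12 called exons had a peak within 1000 nt in either state, where 3.23% of all tested exons had one in EPI and 2.26% in MES. The 33-nt ARAP1 exon, the event called in MES knockdown, had its nearest peak on the gene at 9.19 kb in EPI and 25.7 kb in MES, although ARAP1 held 12 EPI and 2 MES peaks. The nearest peak to the ARHGEF10L microexon was at 7.97 kb in both states, and to the ARHGAP27 exon at 4.16 kb in EPI. ARHGEF11, ARHGAP17 and RAPGEF2 had no listed peak.

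**Figure D4:**
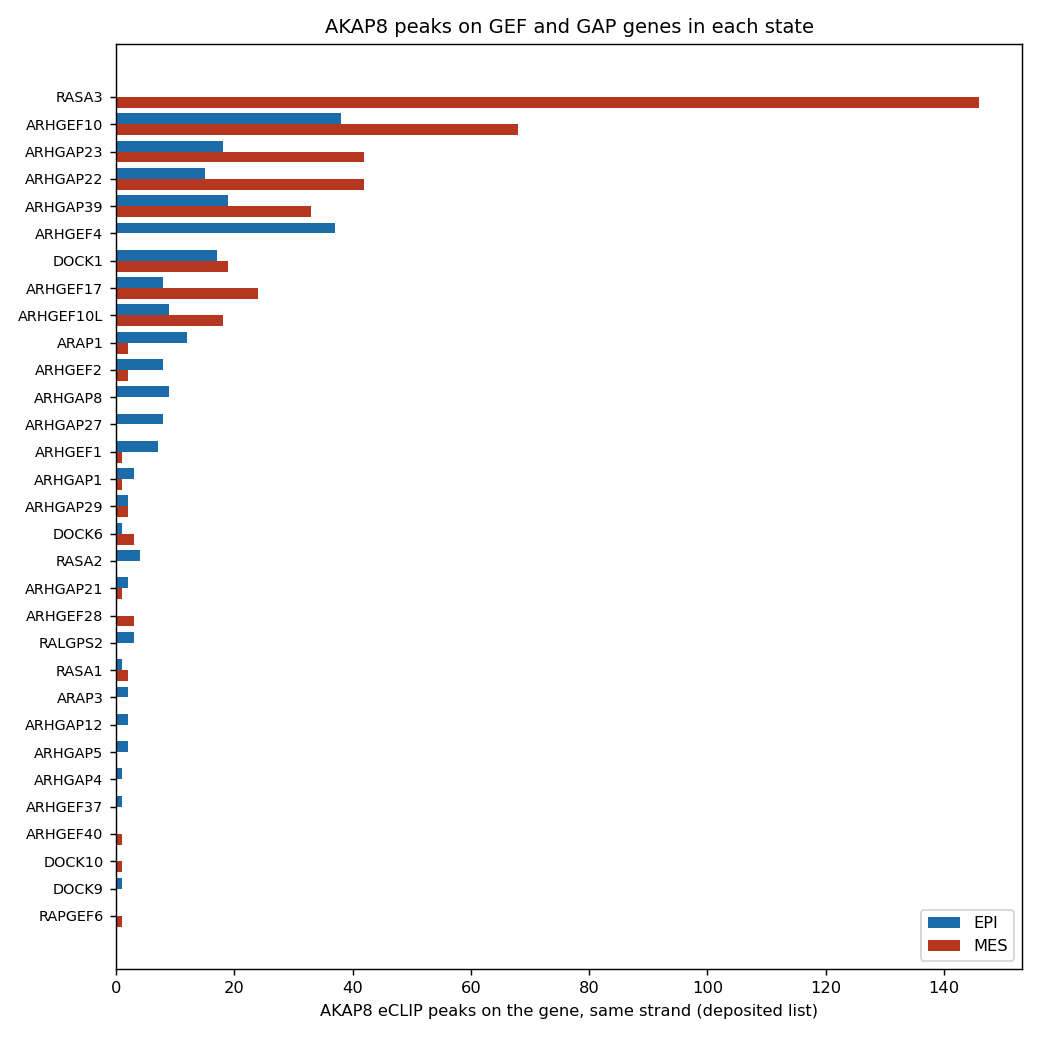
Number of listed AKAP8 eCLIP peaks (horizontal axis, counts) on the same strand as each of the 31 member genes with a peak, in EPI (blue) and MES (red) cells. RASA3 has 146 peaks in MES and 0 in EPI, and ARHGEF4 has 37 in EPI and 0 in MES.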

How the data were processed

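Per the labels and the study's methods, polyA-selected stranded paired-end RNA was sequenced, reads were aligned with STAR to GRCh37, and the authors ran rMATS, whose 15 deposited tables list junction read counts per event and library. Their PSI columns (30 per-sample columns), p-values, FDR and PSI differences were not used, nor was the authors' DESeq2 fold-change table. The authors deposited eCLIP peaks merged over replicates, with log2 immunoprecipitate over input and −log10 adjusted p-values. The listed junction reads were used as deposited.

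Events with a mean of 20 reads per library were tested by a quasi-binomial likelihood-ratio F test with dispersions moderated by limma 3.58.1 (R 4.3.3), with Benjamini-Hochberg adjustment within event type and comparison over all events. Gene levels were log2 of scaled skipped-exon reads plus 1, in exons common to the tables, with at least 10 in 2 libraries, fitted by limma over the 11 libraries. These read counts carry no molecular identifiers, so limits at a count of 0 (3 reads) cover counting error only. Exact permutation tests could not go below p = 0.1 (3 against 3), 0.2 (3 against 2) or 0.333 (2 against 2) and were not used. Tests were checked on simulated data. Peaks were assigned by strand to genes and sequences read from GRCh37 (pysam 0.24.0). Alternatives were other read minima and tests, 1 event per exon, other scaling, pseudocounts and filters, leaving out each library and stricter peak limits. 1 member event of low p is not reported here. Members, gene lists and tests were chosen with earlier results of these data known. Named were all called member events and genes, those of lowest p where fewer than 3 were called, the 5 strongest peaks per state and up to 8 called partners per list.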

Additional observations from a re-analysis of the deposited data

How the results depend on the processing

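The exons of ARHGEF11, ARHGAP17 and RALGPS2 were called in the transition in all 11 alternatives run, and no called member exon or called member gene level changed direction in any alternative run; the partners and the events named for a low p were not rerun. Leaving out 1 library gave 6 to 10 member events in the transition (6 without MES control library 1), 0 to 1 in EPI knockdown (1, a mutually exclusive pair in ARHGAP8, without knockdown library 1), 0 to 1 in MES knockdown (0 without MES control library 1 or knockdown library 2; without knockdown library 1 the call was a mutually exclusive pair in ARHGEF1, not ARAP1) and 5 to 9 in the transition of knockdown cells. Calls over all events then ran from 638 (without EPI control library 1; 666 without MES control library 2) to 1145 in the transition, 18 (without EPI control library 1) to 102 (without EPI knockdown library 1) in EPI knockdown, 6 (without MES control library 1; 12 without MES control library 2) to 240 (without MES knockdown library 1) in MES knockdown, and 247 (without MES knockdown library 1; 292 without EPI knockdown library 3 and 333 without MES knockdown library 2) to 584 in the transition of knockdown cells, against 1017, 29, 30 and 507 with all libraries. Limma on logit PSI called 0 member events in MES knockdown and 0 in the transition of knockdown cells, and 0 of all events there. Without a fold threshold 29 of 59 member genes changed in the transition, 24 in that of knockdown cells and 4 in MES knockdown, where 2153, 1862 and 375 of all 9014 did, and the single exon with the most reads gave 1 in MES knockdown. Leaving out 1 library gave 13 to 16 member genes in the transition, 11 (without MES knockdown library 1) to 17 in that of knockdown cells, whose alternatives were chosen after seeing the data, 0 to 1 in EPI knockdown (0 without EPI control library 1) and 1 to 3 in MES knockdown. Calls over all genes then ran from 937 (without MES control library 1) to 1196 (without MES control library 3) in the transition. In that of knockdown cells they ran from 980 (without EPI knockdown library 3) to 1367 (without EPI knockdown library 2) where both MES knockdown libraries were kept. The cause of these shifts was not tested. Members with a peak were 25 in EPI and 12 in MES at a log2 enrichment of at least 3 (18.0% and 9.79% of all genes) and 20 and 13 at a −log10 p of at least 5 (14.9% and 8.84%), against 26 and 20 (20.1% and 14.3%). The limits of the study's methods, added as an alternative after seeing the data, left 27 of 31 members with a peak in either state. No paired analysis was possible because the splicing tables list the libraries of a group in a single field without their numbers, and position in that field was not taken for a number. Scaled reads of TOP2A and CDK1 were lowest in the second position of EPI controls (2715 and 2897), EPI knockdown (3070 and 2371), MES controls (3981 and 2702) and MES knockdown (2880 and 1787), and those of MKI67 and CCNB1 in 2 of these 4 groups each. The tests take no account of position, and no fit with position as a block was run. Whether position marks a batch, and whether the calls would hold with position in the fit, was not tested. Member exons rest on a median of 134 reads, and knockdown in MES cells on 2 libraries per group, so small changes may have gone uncalled.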

Other observations

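Microexons of at most 30 nt were tested in 11 member exons, of which those of ARHGEF10L and RAPGEF2 were called in the transition. Of all events of any length, 1.51% were called there. The others included exons of ARHGAP12 with a mean PSI of 74.6 in EPI controls and 62.3 in MES controls for 15 nt (adjusted p = 0.613). ARHGEF11 held further microexons, of 30 and 24 nt, with PSI near 99.6 and 99.4 in EPI controls and 100 in MES controls, unlike its 96-nt exon. A 24-nt exon of ARHGEF12 had 100 and 99.6, a 21-nt exon of ARHGEF6 had 100 and 98.7, and a 12-nt exon of ARHGEF1 had 0.323 and 0.685.

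The knockdown effects on the named exons in the 2 states were also set side by side. These effects use all 3 MES controls, where the MES knockdown comparison above used 2. For ARHGEF12 the knockdown minus control difference was -4.70 points in EPI and 2.62 in MES cells (interaction adjusted p = 0.809). The MES value depends on MES control library 3, at 87.0. The other MES controls, at 72.1 and 72.8, lay below the knockdown libraries, at 80.6 and 79.2. For the 230-nt exon of ARHGEF39 the difference was -2.27 and 10.1 points (adjusted p = 0.809). For RAPGEF6 the difference was -0.827 and 18.2 points (adjusted p = 0.818). None of these interactions passed.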
